A study of Mus musculus with 10 samples.

Results

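Endothelial identity and junction genes were followed in RNA-seq of cultured primary mouse hepatocytes. The set held 36 genes, chosen by name as adhesion, junction, transcription factor and signalling genes of endothelium other than the VEGF and Tie receptors and the scavenger receptors. Each of the 36 names matched 1 row among the 56748 genes in the table, and all 36 passed the filter on low counts that left 14183 genes for testing. The study gave wild-type hepatocytes an overnight exposure to conditioned medium from adipocytes that had themselves been starved overnight. The adipocytes were grown in culture from stromal vascular cells of the inguinal depot of male mice (n = 3 per the labels) that had eaten an obesogenic diet over 6 months. Donors of the fat were A-Mttp-/- mice, whose adipocytes the labels call Mttp KO, for the medium named Mttp_KO_CM, and Mttpf/f mice, with floxed Mttp alleles, for the medium named Mttp_flox_CM. Each group had 5 libraries, and the hepatocytes of both groups were wild type, so the genotypes differed in the source of the medium and not in the cells sequenced. The sources used here give neither the driver of the deletion, nor the age of the mice, nor the number of hepatocyte donors.

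Endothelial cells line blood vessels and hold together through junctions built on VE-cadherin, the product of Cdh5, with PECAM1, claudin 5 and ESAM beside it. Transcription factors of the ETS family, such as ERG, and of the SOXF group (SOX7, SOX17 and SOX18) switch on many of the genes that give these cells their identity. The sinusoids of the liver carry a specialised, fenestrated endothelium that makes factor VIII and clears material from blood, and its identity is known to depend on GATA4. Hepatocytes do not make most of these proteins, and preparations of primary hepatocytes are known to carry some sinusoidal cells along.

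The hepatocyte markers were abundant, with albumin (Alb) at 25098 ± 594 CPM in Mttp_KO_CM and 29138 ± 507 CPM in Mttp_flox_CM (SD, n = 5 each; CPM is a gene's count scaled to library size with TMM, the trimmed mean of M values). Library totals, as summed counts, were 14283517 to 17178131 in Mttp_KO_CM and 14199798 to 15950530 in Mttp_flox_CM. In each group 1 column had a number found in no label, so it served as an unnumbered replicate; without both of these columns 34 members were still lower and 0 higher. Whether replicate libraries stem from different cultures or mice is not stated, and the p-values therefore rest on a spread that may be technical. Across all genes, edgeR's quasi-likelihood test called 2585 higher and 2571 lower in Mttp_KO_CM at an adjusted p under 0.05, and with total counts alone as the scaling 1982 and 3217. Library values below are given in the order of replicates 1 to 4 and then the unnumbered one, and falls and rises are differences on the log2 scale, Mttp_KO_CM over Mttp_flox_CM.

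Nearly the whole set was lower in cultures given Mttp_KO_CM medium. Of the 36 genes 34 fell and 0 rose (edgeR, adjusted p under 0.05), against 18.1% of all genes tested that were called lower and 18.2% called higher. The members were chosen with earlier results of these data known, so these shares describe the list and do not test it. No member had a positive fold change, so the count rising was also 0 at an unadjusted p under 0.05, and it was 0 with DESeq2 and with limma on FPKM. The median log2 fold change of the members was -0.77, against 0.00 over all genes tested. In 33 of the 36 every Mttp_KO_CM library lay below every Mttp_flox_CM library, which held for 12.7% of genes tested. A fall of more than 1 on the log2 scale was called for 12 members and for 1.42% of genes tested. The falls were far from equal, since the log2 fold changes ran from -2.01 for Clec14a to -0.07 for Gata4. In bulk RNA, fewer endothelial cells and less RNA per cell cannot be told apart.

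**Figure D1:**
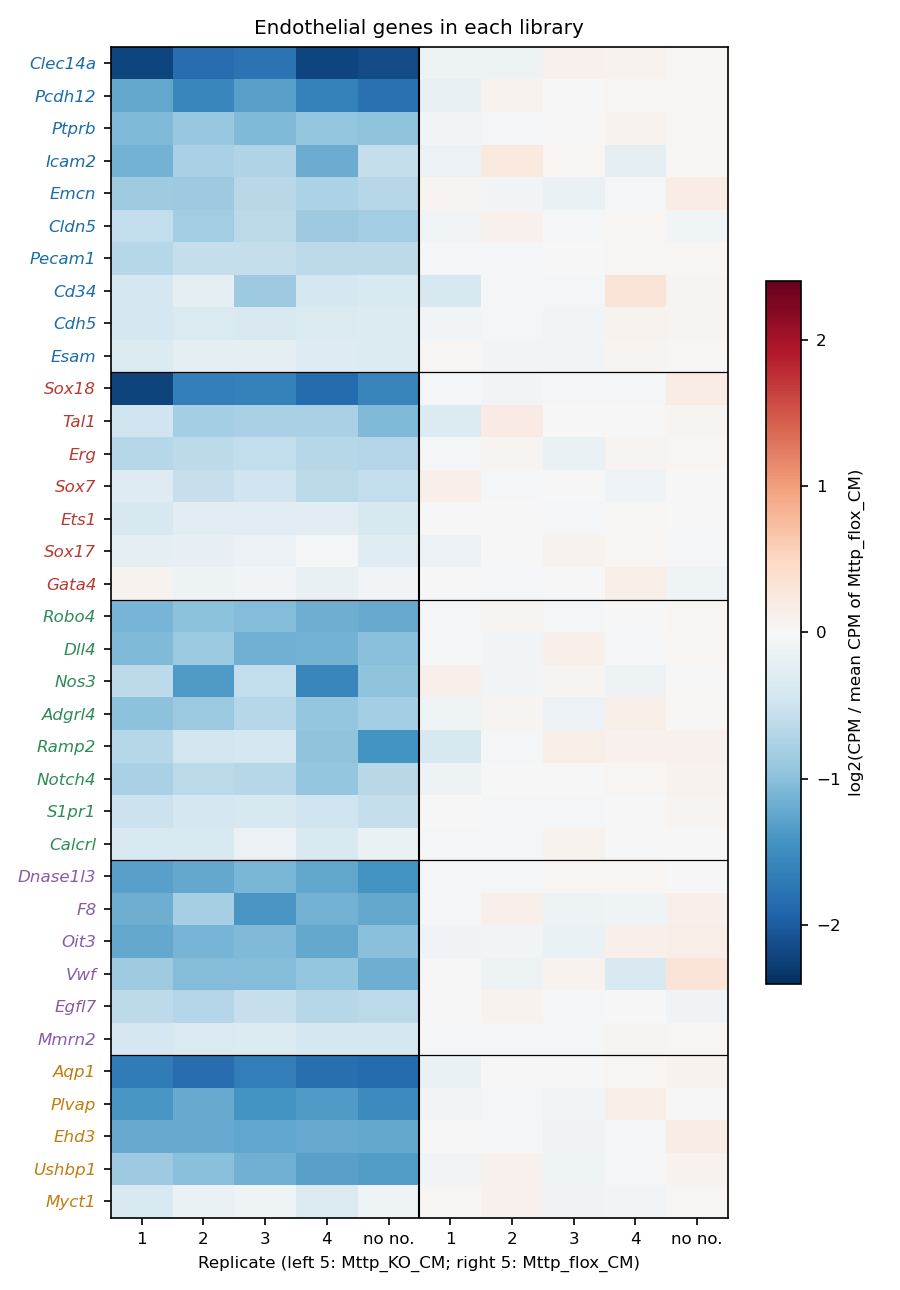
Level of each of the 36 endothelial genes (rows, coloured by role) in each of the 10 libraries (columns; the 5 Mttp_KO_CM libraries stand left of the 5 Mttp_flox_CM libraries), as log2 of CPM over the mean CPM of Mttp_flox_CM. The Mttp_KO_CM side is darkest blue for Clec14a, Sox18 and Aqp1 and close to white for Gata4 and Sox17.

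Markers of other cell types moved in the same libraries. Over all genes tested 18.1% were called lower and 18.2% higher, beside which the counts here should be read. Of 12 Kupffer cell markers, all tested, 11 fell and Cd68 rose, and their summed level was 664 to 755 CPM in Mttp_KO_CM and 923 to 1018 CPM in Mttp_flox_CM. Of 12 stellate cell markers 9 were tested and 7 fell, with a summed level of 50.1 to 55.9 CPM in Mttp_KO_CM and 87.4 to 96.6 CPM in Mttp_flox_CM. Of 8 cholangiocyte markers 7 were tested and 4 fell, with a sum of 316 to 384 CPM in Mttp_KO_CM and 570 to 633 CPM in Mttp_flox_CM, most of which was Spp1. Of 12 hepatocyte markers 9 fell and 2 rose, and the sum was 44879 to 46374 CPM in Mttp_KO_CM and 53926 to 56543 CPM in Mttp_flox_CM. Of 8 lymphocyte and neutrophil markers 2 were tested and Ptprc fell; Cd3e, S100a8 and S100a9 averaged under 0.1 CPM in each group, and Nkg7 had no count. The red cell markers summed to 1.40 to 2.37 CPM in Mttp_KO_CM and 1.49 to 2.74 CPM in Mttp_flox_CM. Of 6 adipocyte markers 1 was tested, Lipe, which hepatocytes can also express, and it was called higher. Lep and Cfd had no count, and Adipoq and Retn averaged under 0.1 CPM in each group. Plin1, not tested, averaged 0.401 CPM in Mttp_KO_CM and 0.119 CPM in Mttp_flox_CM. The median log2 fold change over tested markers was -0.63 for Kupffer, -1.07 for stellate, -0.29 for cholangiocyte and -0.39 for hepatocyte genes. For the 36 members it was -0.77. The part of these other cells in the levels of the endothelial genes was not tested.

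Among the 10 junction and adhesion genes all 10 fell, by amounts that spread widely around their median log2 fold change of -0.76. Cdh5, which encodes VE-cadherin, the adhesion protein of endothelial adherens junctions (chromosome 8, from 104828257 to 104871143 on the plus strand, GRCm39), had 273, 288, 283, 287 and 291 CPM in Mttp_KO_CM, against 347, 356, 351, 387 and 385 CPM in Mttp_flox_CM. The groups did not overlap, yet the difference was modest (log2 -0.36, SE 0.0322, edgeR adjusted p = 1.8e-09). Pecam1, an immunoglobulin-like adhesion molecule at the same contacts, had 176, 189.7, 190.4, 183 and 182 CPM in Mttp_KO_CM, against 272, 275, 283, 287 and 292 CPM in Mttp_flox_CM. It fell by 0.61 (SE 0.0303, edgeR adjusted p = 2.1e-14), which left it at 65.3% of its level in Mttp_flox_CM. Ptprb encodes VE-PTP, a receptor phosphatase that binds VE-cadherin and TIE2, and had 49.1, 53.9, 48.99, 53.4 and 51.9 CPM in Mttp_KO_CM, against 97.2, 98.6, 102, 108 and 104 CPM in Mttp_flox_CM. Every Mttp_KO_CM value was well under the lowest Mttp_flox_CM value (log2 -0.99, SE 0.0414, edgeR adjusted p = 9.8e-16).

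Clec14a, a C-type lectin-like adhesion molecule of endothelium (chromosome 12, from 58311506 to 58316076 on the minus strand), showed the largest fall of the set. It had 3.94, 5.12, 5.27, 3.95 and 4.07 CPM in Mttp_KO_CM, against 16.6, 16.6, 19.5, 19.1 and 18.5 CPM in Mttp_flox_CM (log2 -2.01, SE 0.101, edgeR adjusted p = 3.2e-14). The 5 Mttp_KO_CM libraries lay within a narrow band at 24.8% of the fitted Mttp_flox_CM level, and among all genes tested 5 had a lower fold change. Mmrn2, which encodes its known partner, also fell but by less, as described below. Pcdh12, a protocadherin of endothelial contacts on chromosome 18, had 3.81, 3.02, 3.61, 2.87 and 2.57 CPM in Mttp_KO_CM, against 7.88, 9.44, 8.87, 9.19 and 8.997 CPM in Mttp_flox_CM, with no overlap (log2 -1.48, SE 0.124, edgeR adjusted p = 6.7e-10). The other adhesion genes fell by less than Pcdh12. Cldn5, the endothelial tight junction claudin, fell by 0.75; the sialomucin Emcn (endomucin) by 0.76; Icam2 by 0.86; and Esam, an endothelial adhesion molecule of tight junctions, by 0.28. Cd34, a sialomucin shared with blood progenitors, fell by 0.46 (edgeR adjusted p = 0.016), but its values overlapped, and the call was lost without Mttp_flox_CM replicate 4 (adjusted p = 0.059) or Mttp_KO_CM replicate 3 (adjusted p = 0.054).

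The 7 transcription factor genes split, with 5 lower and 2 not called. Sox18, a SOXF factor of vascular and lymphatic endothelium (chromosome 2, from 181311629 to 181313433 on the minus strand), had 3.55, 5.33, 5.38, 4.59 and 5.49 CPM in Mttp_KO_CM, against 16.05, 15.9, 16.2, 16.01 and 18.7 CPM in Mttp_flox_CM. It stood at 29.4% of the Mttp_flox_CM level with a gap of more than 10 CPM between the groups (log2 -1.77, SE 0.105, edgeR adjusted p = 9.1e-13). Sox17, from the same SOXF group and known for its role in arterial endothelium (chromosome 1, from 4561154 to 4567577 on the minus strand), had 14.1, 14.4, 15.03, 16.1 and 13.5 CPM in Mttp_KO_CM, against 15.1, 16.7, 17.7, 17.2 and 16.3 CPM in Mttp_flox_CM. The groups overlapped and the test missed the threshold (log2 -0.18, SE 0.0724, edgeR adjusted p = 0.055); the 95% interval of its log2 fold change was -0.33 to -0.03, and the call was gained under 4 of 19 alternatives. Sox7, the third SOXF gene, lay between them in fold change, with 7.01 ± 0.663 CPM in Mttp_KO_CM and 10.01 ± 0.594 CPM in Mttp_flox_CM (SD, n = 5 each) and fell by 0.51 (edgeR adjusted p = 1.7e-04). The Sox18 to Sox17 ratio of counts was 0.251 to 0.407 in Mttp_KO_CM libraries and 0.919 to 1.15 in Mttp_flox_CM libraries. That of Sox7 to Sox17 was 0.395 to 0.572 in Mttp_KO_CM and 0.542 to 0.722 in Mttp_flox_CM, where the groups overlapped. These pairs, like the others below, were chosen after their values were seen and were not tested as ratios.

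Erg, the ETS factor that maintains endothelial identity, had 20.8, 21.6, 22.2, 20.96 and 20.7 CPM in Mttp_KO_CM, against 33.00, 35.1, 30.01, 35.00 and 34.8 CPM in Mttp_flox_CM. It fell without overlap (log2 -0.66, SE 0.0549, edgeR adjusted p = 5.9e-10). Ets1, an ETS factor that lymphocytes and other cells also express, had 136, 146, 147, 148 and 134 CPM in Mttp_KO_CM, against 174, 177, 171, 180.2 and 178 CPM in Mttp_flox_CM. Its fall was smaller (log2 -0.31, SE 0.0335, edgeR adjusted p = 6.2e-08), and the Erg to Ets1 count ratio was 0.141 to 0.154 in Mttp_KO_CM and 0.175 to 0.199 in Mttp_flox_CM. Tal1, a basic helix-loop-helix factor shared by endothelium and blood progenitors, had 5.12, 4.07, 4.14, 4.14 and 3.42 CPM in Mttp_KO_CM, against 5.72, 8.17, 7.19, 7.20 and 7.43 CPM in Mttp_flox_CM, with no overlap (log2 -0.77, SE 0.129, edgeR adjusted p = 3.6e-05). Gata4, which directs sinusoidal endothelial identity and is also expressed by hepatocytes and stellate cells (chromosome 14, from 63436371 to 63509141 on the minus strand), had 33.4, 28.97, 30.2, 27.8 and 30.1 CPM in Mttp_KO_CM, against 31.3, 30.5, 31.7, 34.9 and 29.5 CPM in Mttp_flox_CM. The groups overlapped (log2 -0.07, SE 0.0565, edgeR adjusted p = 0.37), with a 95% interval of -0.19 to 0.05, so falls of the size seen for the other factors apart from Sox17 lay outside it.

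Of 14 further transcription factors known from endothelium, all tested, 10 fell and Ets2 rose. Over all genes tested the shares were 18.1% lower and 18.2% higher. Maf, a factor of sinusoidal endothelium and macrophages, had 43.8 ± 2.64 CPM in Mttp_KO_CM and 88.8 ± 5.98 CPM in Mttp_flox_CM (SD, n = 5 each; log2 -1.02), and Meis2 fell by 1.08. The ETS factors Fli1 and Elk3 fell by 0.67 and 0.62, amounts close to that of Erg, while the ETS factor Etv6 fell by only 0.22. Ets2, which hepatocytes express, had 279.9 ± 10.2 CPM in Mttp_KO_CM and 211 ± 3.88 CPM in Mttp_flox_CM and rose by 0.41 (edgeR adjusted p = 3.4e-11). The flow-induced factor Klf2 had a log2 fold change of 0.06 (SE 0.111) and was not called.

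Promoter windows were available in the RefSeq tables (GRCm38.p6) for 17 of the 36 genes, in 22 windows of 250 bases before to 50 bases after a start site. They are shown because ETS factors, among them the members Erg and Ets1, are known to act at endothelial promoters, for the 2 genes with the largest and the 2 with the smallest called falls among those with a single window. Capitals mark the 6 letters AGGAAG, an ETS-type core, or their reverse complement CTTCCT. The windows are chr12:58269209-58269508 on the minus strand for Clec14a, chr6:55336049-55336348 on the plus strand for Aqp1, chr2:84425217-84425516 on the minus strand for Calcrl and chr10:5593478-5593777 on the plus strand for Myct1, each 5′ to 3′.
Clec14a: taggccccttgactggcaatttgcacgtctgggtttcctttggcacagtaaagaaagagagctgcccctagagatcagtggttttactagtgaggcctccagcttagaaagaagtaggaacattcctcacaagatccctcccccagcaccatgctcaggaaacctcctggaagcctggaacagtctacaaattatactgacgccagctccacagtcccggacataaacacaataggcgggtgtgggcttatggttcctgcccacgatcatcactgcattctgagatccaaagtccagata
Aqp1: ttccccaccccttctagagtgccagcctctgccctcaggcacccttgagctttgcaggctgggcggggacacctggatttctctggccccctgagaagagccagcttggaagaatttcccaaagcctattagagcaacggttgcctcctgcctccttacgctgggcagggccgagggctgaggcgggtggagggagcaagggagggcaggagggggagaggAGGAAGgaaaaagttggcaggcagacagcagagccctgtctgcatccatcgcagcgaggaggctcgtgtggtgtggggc
Calcrl: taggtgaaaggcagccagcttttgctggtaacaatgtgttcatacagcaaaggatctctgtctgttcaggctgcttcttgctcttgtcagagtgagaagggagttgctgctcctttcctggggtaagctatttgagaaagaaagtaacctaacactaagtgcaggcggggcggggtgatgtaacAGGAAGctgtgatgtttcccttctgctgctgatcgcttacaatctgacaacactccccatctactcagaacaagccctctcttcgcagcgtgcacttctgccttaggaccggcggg
Myct1: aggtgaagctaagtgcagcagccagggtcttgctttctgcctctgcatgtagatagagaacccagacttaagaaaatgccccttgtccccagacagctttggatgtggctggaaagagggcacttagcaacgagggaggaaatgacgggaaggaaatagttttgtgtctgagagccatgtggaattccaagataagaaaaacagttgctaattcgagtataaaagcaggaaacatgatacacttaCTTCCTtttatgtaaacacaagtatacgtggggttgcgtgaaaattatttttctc
These exact letters occur once each in the Aqp1, Calcrl and Myct1 windows and not in that of Clec14a. Shorter strings within them, such as GGAA, were not marked and do occur in the Clec14a window. Clec14a and Aqp1 fell by 2.01 and 1.76, and Calcrl and Myct1 by 0.28 and 0.22. On either strand the motif was in 13 of the 22 member windows (59.1%), covering 12 of the 17 genes, and in 35.4% of all 32851 windows. A SOX-type core, AACAAT or ATTGTT, was in 4 of the 22 (18.2%) and in 10.7% of all windows. A GATA-type core, AGATAA or TTATCT, was in 3 of the 22 (13.6%) and in 11.2% of all windows. None of the 3 motifs contains another, and a match describes the sequence and not a bound site.

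**Figure D2:**
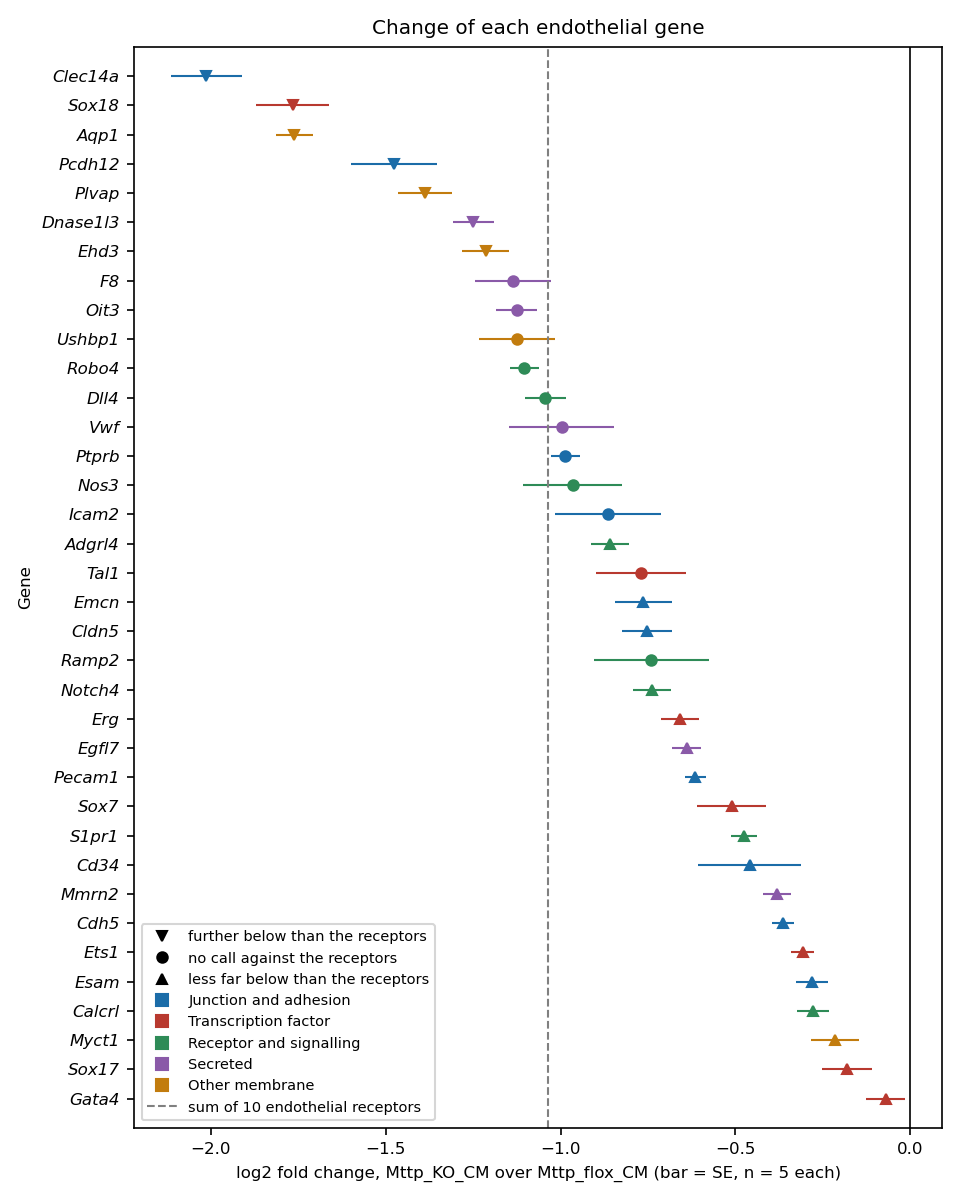
Log2 fold change of each of the 36 genes, Mttp_KO_CM over Mttp_flox_CM (points; bars are SE, n = 5 each), coloured by role, with the shape giving the call against 10 other endothelial receptor genes whose summed change is the dashed line. Clec14a lies near -2.0, and Gata4 lies near 0.

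All 8 receptor and signalling genes fell, with no overlap between the groups in any of them. Robo4, an endothelial guidance receptor that stabilises vessels (chromosome 9, from 37313193 to 37326411 on the plus strand), had 57.2, 62.9, 60.3, 55.4 and 54.1 CPM in Mttp_KO_CM, against 121, 129.8, 121, 123 and 128 CPM in Mttp_flox_CM, and fell by 1.10 (SE 0.0415, edgeR adjusted p = 1.0e-16). Dll4, a Notch ligand of arterial and sprouting endothelium, had 18.9, 21.2, 17.6, 17.9 and 19.6 CPM in Mttp_KO_CM, against 37.7, 37.2, 42.3, 37.6 and 40.6 CPM in Mttp_flox_CM (log2 -1.04, SE 0.0580, edgeR adjusted p = 2.4e-13). The Mttp_KO_CM libraries were thus at 48.5% of the fitted Mttp_flox_CM level. Notch4, an endothelial Notch receptor, had 32.1, 35.4, 34.6, 28.98 and 35.1 CPM in Mttp_KO_CM, against 50.8, 55.6, 55.00, 57.04 and 58.5 CPM in Mttp_flox_CM (log2 -0.74, SE 0.0532, edgeR adjusted p = 3.8e-11). Ligand and receptor differed in the size of the fall, and the Dll4 to Notch4 count ratio was 0.509 to 0.618 in Mttp_KO_CM and 0.659 to 0.769 in Mttp_flox_CM. Adgrl4, an adhesion G protein-coupled receptor of endothelium, had 44.7, 47.6, 54.9, 46.2 and 49.8 CPM in Mttp_KO_CM, against 82.5, 92.3, 80.1, 96.6 and 89.6 CPM in Mttp_flox_CM, with no overlap (log2 -0.86, SE 0.0556, edgeR adjusted p = 4.8e-12).

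S1pr1, the receptor through which sphingosine 1-phosphate steadies the vessel barrier, had 94.3 ± 4.57 CPM in Mttp_KO_CM and 131 ± 4.14 CPM in Mttp_flox_CM (SD, n = 5 each; log2 -0.48, SE 0.0371, edgeR adjusted p = 1.6e-10). Calcrl and Ramp2 together encode an adrenomedullin receptor. Calcrl, the G protein-coupled part, had 69.4, 68.96, 80.5, 69.2 and 79.4 CPM in Mttp_KO_CM, against 86.9, 86.8, 94.00, 88.5 and 89.6 CPM in Mttp_flox_CM, and fell by 0.28 (edgeR adjusted p = 3.1e-05). Ramp2, the accessory part, was scarce, with 30 to 104 counts per library, and fell by 0.74 (SE 0.164). The Ramp2 to Calcrl count ratios overlapped, at 0.0270 to 0.0621 in Mttp_KO_CM and 0.0514 to 0.0708 in Mttp_flox_CM. Nos3, the endothelial nitric oxide synthase, had 6.50, 3.93, 6.63, 3.38 and 5.14 CPM in Mttp_KO_CM, against 10.96, 9.57, 10.5, 9.19 and 10.02 CPM in Mttp_flox_CM (log2 -0.97, SE 0.141, edgeR adjusted p = 5.9e-06). Its Mttp_KO_CM libraries were uneven, with replicates 2 and 4 under 4 CPM and replicates 1 and 3 over 6 CPM.

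Of 12 Notch pathway genes 10 were tested, 6 fell and 0 rose by edgeR. Rbpj alone of the 10 had a positive fold change, also not passing at an unadjusted p under 0.05. Here and for the next lists in this paragraph, the shares over all genes tested were 18.1% lower and 18.2% higher. Notch1 fell by 0.48 and the Notch-modifying glycosyltransferases Lfng and Mfng by 1.02 and 0.94, while the shared DNA-binding partner Rbpj had 0.01 (SE 0.0440). Of 12 genes around adrenomedullin, sphingosine 1-phosphate and Robo signalling 8 were tested, 4 fell and 2 rose. The sphingosine 1-phosphate exporter Spns2 and its plasma carrier Apom fell by 0.51 and 0.40, whereas S1pr3 was at 3.30 ± 0.648 CPM in Mttp_KO_CM and 1.72 ± 0.403 CPM in Mttp_flox_CM and rose by 0.94 (edgeR adjusted p = 5.2e-04). Adrenomedullin itself (Adm) rose by 0.11 (edgeR adjusted p = 0.039). Of 7 genes tied to nitric oxide synthase and its effector 5 fell. They were the caveolar coat genes Cavin2 (by 1.11) and Cavin1 (0.31), the cyclase subunits Gucy1b1 (1.15) and Gucy1a1 (0.63), and Nostrin (0.25). Cav1 was not called (log2 -0.28, SE 0.136).

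All 6 genes for secreted proteins fell, with no overlap. Dnase1l3, a nuclease released into plasma by sinusoidal endothelium and by macrophages, had 14.4, 15.2, 16.5, 14.8 and 13.1 CPM in Mttp_KO_CM, against 34.1, 34.3, 36.3, 36.4 and 35.4 CPM in Mttp_flox_CM (log2 -1.25, SE 0.0589, edgeR adjusted p = 8.9e-15). Oit3, a zona pellucida domain protein that marks liver sinusoidal endothelium in mice, had 29.2, 31.7, 32.7, 29.3 and 34.2 CPM in Mttp_KO_CM, against 64.8, 65.4, 61.6, 74.5 and 76.1 CPM in Mttp_flox_CM (log2 -1.13, SE 0.0590, edgeR adjusted p = 7.2e-14). F8, which encodes coagulation factor VIII, had 5.52, 7.16, 4.73, 5.67 and 5.28 CPM in Mttp_KO_CM, against 12.1, 13.5, 11.5, 11.5 and 13.6 CPM in Mttp_flox_CM (log2 -1.14, SE 0.109, edgeR adjusted p = 6.7e-09). Vwf, the carrier of factor VIII and typical of larger vessels, had 2.73 ± 0.226 CPM in Mttp_KO_CM and 5.47 ± 0.957 CPM in Mttp_flox_CM and fell by 1.00 (edgeR adjusted p = 8.6e-06). Egfl7, a matrix-bound protein of endothelium, had 56.6, 53.7, 59.8, 54.7 and 55.8 CPM in Mttp_KO_CM, against 87.4, 93.2, 86.1, 88.3 and 82.1 CPM in Mttp_flox_CM (log2 -0.64, SE 0.0419, edgeR adjusted p = 6.1e-12). Mmrn2, an endothelial matrix protein to which CLEC14A binds, had 60.7 ± 1.96 CPM in Mttp_KO_CM and 78.99 ± 2.88 CPM in Mttp_flox_CM and fell by 0.38. The Clec14a to Mmrn2 count ratio was 0.0659 to 0.0835 in Mttp_KO_CM and 0.216 to 0.252 in Mttp_flox_CM.

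The 5 other membrane genes fell as well, 4 of them by more than 1 on the log2 scale. Aqp1, a water channel of endothelium and also of cholangiocytes (chromosome 6, from 55313417 to 55325540 on the plus strand), had 21.8, 19.6, 22.4, 20.1 and 19.4 CPM in Mttp_KO_CM, against 63.2, 70.6, 70.9, 72.1 and 74.2 CPM in Mttp_flox_CM. It was left at 29.5% of its Mttp_flox_CM level (log2 -1.76, SE 0.0526, edgeR adjusted p = 9.4e-19). Plvap, which forms the diaphragms of fenestrae and caveolae, had 8.15, 9.26, 7.93, 8.34 and 7.49 CPM in Mttp_KO_CM, against 20.6, 20.95, 20.6, 23.8 and 21.7 CPM in Mttp_flox_CM (log2 -1.39, SE 0.0775, edgeR adjusted p = 2.7e-13). Ehd3, a membrane-trafficking ATPase, had 10.97, 10.9, 10.7, 10.96 and 10.8 CPM in Mttp_KO_CM, against 25.3, 24.4, 23.7, 24.5 and 28.4 CPM in Mttp_flox_CM. The Mttp_KO_CM libraries differed from each other by less than 1 CPM and none reached 12 CPM (log2 -1.21, SE 0.0680, edgeR adjusted p = 2.7e-13). Ushbp1 had 5.85, 5.33, 4.85, 4.33 and 4.21 CPM in Mttp_KO_CM, against 10.2, 11.6, 10.05, 10.5 and 11.3 CPM in Mttp_flox_CM (log2 -1.12, SE 0.108, edgeR adjusted p = 7.7e-09). Myct1 had 17.8 ± 1.62 CPM in Mttp_KO_CM and 20.7 ± 1.07 CPM in Mttp_flox_CM (SD, n = 5 each) and fell by 0.22 (edgeR adjusted p = 0.016); without Mttp_KO_CM replicate 1 the adjusted p was 0.051.

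The labels describe no step that marks strand, so reads of a gene that overlaps a member on the opposite strand cannot be told apart from its own where the exons coincide. Overlapping genes with more than 0.5 times the counts of the member were found for 4 of the 36. Plvap overlaps Gtpbp3, with 1.47 times its counts and a log2 fold change of 0.19 (SE 0.0759), and Egfl7 overlaps Agpat2, with 1.09 times its counts and 0.17 (SE 0.0489). F8 overlaps Fundc2, with 2.05 times its counts and -0.22 (SE 0.0720), and Nos3 overlaps Atg9b, with 0.543 times its counts and 0.39 (SE 0.177).

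The 36 genes lie on 16 chromosomes, and the closest neighbours among them were Plvap and Ushbp1, 102 kb apart on chromosome 8, followed by Robo4 and Esam, 113 kb apart on chromosome 9. Plvap and Ushbp1 fell by 1.39 and 1.12. Robo4 and Esam fell by 1.10 and 0.28, and the Robo4 to Esam count ratio was 1.59 to 1.72 in Mttp_KO_CM and 2.78 to 3.20 in Mttp_flox_CM. Gata4 and Sox7 share chromosome 14, and their Sox7 to Gata4 ratio was 0.220 to 0.242 in Mttp_KO_CM and 0.266 to 0.347 in Mttp_flox_CM.

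**Figure D3:**
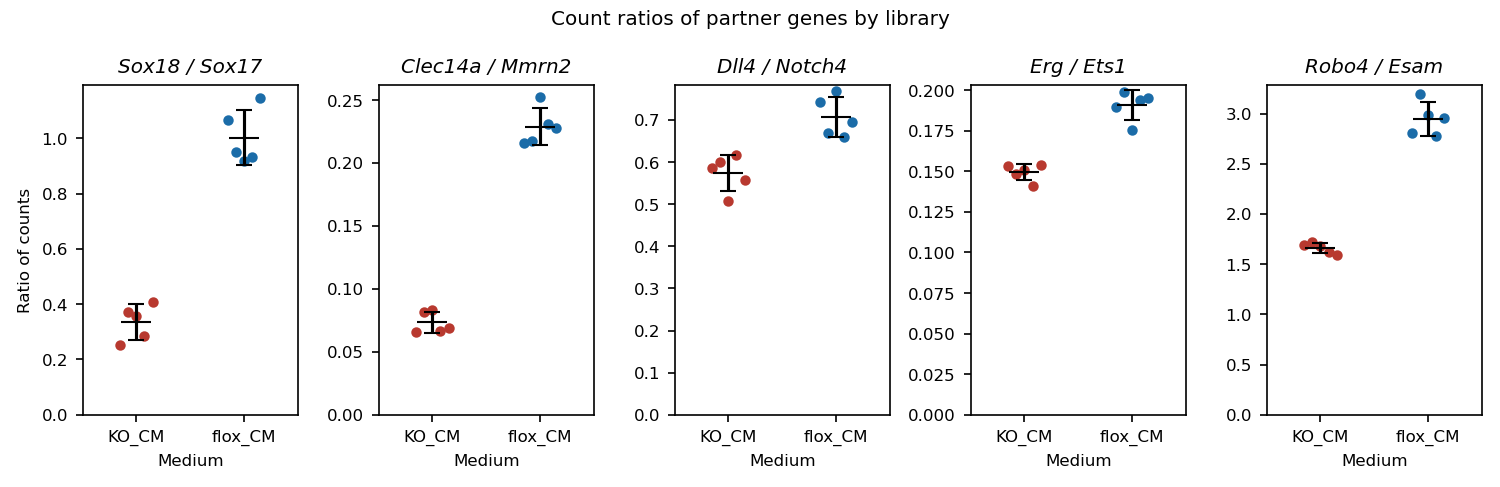
Ratio of the counts of 5 pairs of endothelial genes in each library (points), with the mean and SD (black; n = 5 each), Mttp_KO_CM left of Mttp_flox_CM and each axis from 0. In the Sox18 to Sox17 panel the Mttp_KO_CM libraries lie between 0.251 and 0.407 and the Mttp_flox_CM libraries between 0.919 and 1.15.

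To ask which members differed from other endothelial genes taken as a sum, every library was rescaled. The scale was the summed counts of 10 endothelial receptor genes outside the set (Kdr, Flt1, Flt4, Tek, Tie1, Eng, Stab2, Lyve1, Gpr182 and Clec4g). All 14183 genes were then tested again. All 10 receptors had fallen, and their sum was 623 to 664 CPM in Mttp_KO_CM and 1278 to 1345 CPM in Mttp_flox_CM. The sum over the 36 members was 1346 to 1433 CPM in Mttp_KO_CM and 2065 to 2210 CPM in Mttp_flox_CM, so it came to 212 to 223% of the receptors in Mttp_KO_CM and 162 to 166% in Mttp_flox_CM. On this scale 7 members were lower in Mttp_KO_CM, where 0.374% of genes tested were called lower. A further 18 were higher, where 95.1% of genes tested were called higher, and 11 were not called in either direction. Without both unnumbered libraries 6 were lower and 20 higher, since Ehd3 lost its call (edgeR adjusted p = 0.093) and Tal1 and Ramp2 were called higher. The list of receptors was chosen with earlier results of these data known. The sum was taken as a fixed scale. The SE and p-values on it therefore carry the spread between libraries and not the spread between receptors.

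The 7 that had fallen further than the sum of the receptors were Clec14a, Sox18, Aqp1, Pcdh12, Plvap, Dnase1l3 and Ehd3. They had not fallen further than every single receptor. With TMM scaling Clec4g fell by 2.16, more than any of the 7. Gpr182 fell by 1.55 and Kdr by 1.44, both more than Plvap, Dnase1l3 and Ehd3. The other receptors fell by 0.72 to 1.12. Relative to the receptors the log2 fold change of Clec14a was -0.98 (SE 0.103, edgeR adjusted p = 4.5e-10). That of Sox18 was -0.73 (SE 0.106, edgeR adjusted p = 2.3e-07) and that of Aqp1 -0.72 (SE 0.0549, edgeR adjusted p = 2.9e-13). Plvap was at -0.35, Pcdh12 at -0.44 and Dnase1l3 at -0.21. Ehd3 was nearest to the threshold at -0.18 (SE 0.0724, edgeR adjusted p = 0.021), and it kept its call under 18 of 23 alternatives, while the other 6 kept theirs under all 23.

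The 18 that had fallen less than the sum of the receptors, or had not been called at all, included the main junction genes. Cdh5 was at 0.67 (SE 0.0345, edgeR adjusted p = 2.4e-17) relative to the receptors and Pecam1 at 0.42 (SE 0.0334, edgeR adjusted p = 8.0e-13). Esam was at 0.76, Cldn5 at 0.28, Emcn at 0.27 and Cd34 at 0.58. The factors Ets1, Erg, Sox7, Sox17 and Gata4 were at 0.73, 0.38, 0.52, 0.86 and 0.97. Over all genes tested the median log2 fold change on this scale was 1.04. Gata4, which was not called with TMM scaling, lay close to that median. Mmrn2, Egfl7, S1pr1, Calcrl, Notch4, Adgrl4 and Myct1 made up the rest, between 0.18 for Adgrl4 and 0.82 for Myct1. Each of the 18 kept this call under all 23 alternatives.

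The 11 members not called against the receptors were Ptprb, Robo4, Dll4, Oit3, F8, Vwf, Nos3, Icam2, Ushbp1, Tal1 and Ramp2. For the well-covered ones the intervals were narrow. The 95% interval of the relative log2 fold change was -0.04 to 0.14 for Ptprb, -0.16 to 0.02 for Robo4, -0.13 to 0.12 for Dll4 and -0.20 to 0.03 for Oit3. For scarce ones it was wide, -0.04 to 0.62 for Ramp2 and -0.28 to 0.35 for Vwf, so smaller differences could not be seen there. The receptors themselves were not uniform on this scale, with Kdr at -0.40, Gpr182 at -0.52 and Clec4g at -1.13, but Tek at 0.32 and Tie1 at 0.30. The 7 members called lower lay within this range, as did Adgrl4, Emcn, Cldn5 and Notch4 among those called higher.

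Levels between genes were compared on the deposited FPKM, which corrects for gene length. Cdh5 was the most abundant of the set in both groups, at 67.2 ± 1.63 FPKM in Mttp_KO_CM and 86.4 ± 4.69 FPKM in Mttp_flox_CM (SD, n = 5 each). S1pr1 and Pecam1 came next; their ranges overlapped in each group, with Pecam1 at 29.4 ± 0.994 FPKM in Mttp_KO_CM and 44.96 ± 1.39 FPKM in Mttp_flox_CM. At the low end Vwf was at 0.169 ± 0.0140 FPKM in Mttp_KO_CM and 0.338 ± 0.0593 FPKM in Mttp_flox_CM. The level of Aqp1 was 7.83 ± 0.502 FPKM in Mttp_KO_CM and 26.6 ± 1.60 FPKM in Mttp_flox_CM, which placed it 13th among the 36 in Mttp_KO_CM and 4th in Mttp_flox_CM. Gata4 was 14th in Mttp_KO_CM and 18th in Mttp_flox_CM. Of 35 neighbouring pairs in the order, the ranges of 26 overlapped in Mttp_KO_CM and those of 26 in Mttp_flox_CM, so much of the order among middling genes was not resolved.

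**Figure D4:**
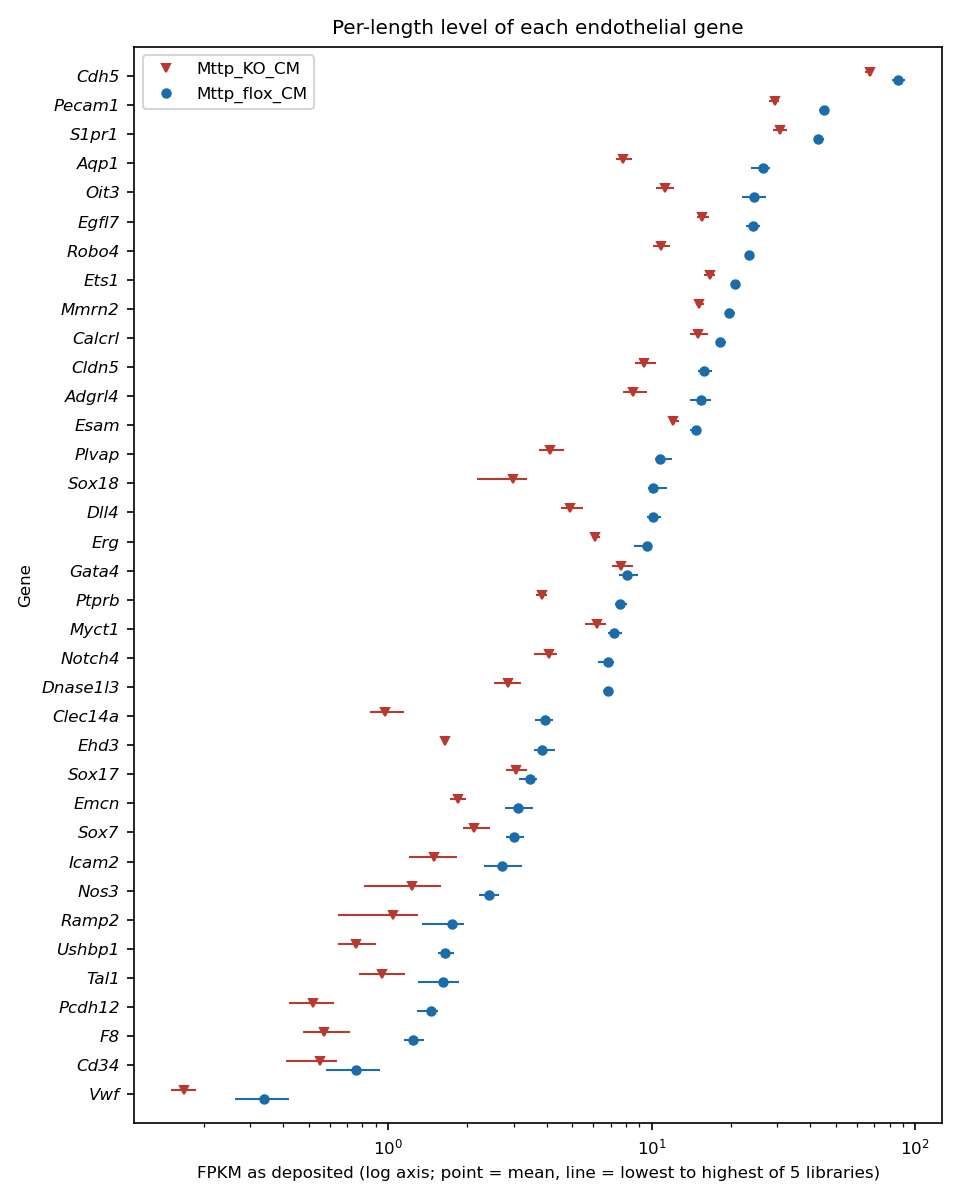
Deposited FPKM (log axis) of each of the 36 genes in Mttp_KO_CM (triangles) and Mttp_flox_CM (circles), as the mean and the range of 5 libraries, ordered by the Mttp_flox_CM mean. Cdh5 tops the order, and for Gata4 the lines of the groups overlap.

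Of 16 junction genes that hepatocytes express, all tested, 7 fell and 2 rose, against 18.1% of all genes tested called lower and 18.2% called higher, with a median log2 fold change of -0.07. E-cadherin (Cdh1) was at 125 ± 3.15 CPM in Mttp_KO_CM and 142 ± 4.94 CPM in Mttp_flox_CM (SD, n = 5 each) and fell by 0.19, and N-cadherin (Cdh2) fell by 0.17. The scaffold gene Tjp1, which endothelium also uses, fell by 0.34, the largest fall of the list. Beta-catenin (Ctnnb1) had -0.06 (SE 0.0237) and was not called, and the gap junction gene Gjb2 rose by 0.31.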

How the data were processed

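Poly-A selected RNA of cultured hepatocytes was sequenced, 5 libraries per medium. The authors deposited raw read counts and FPKM for each gene and library. The tools listed in the submitters' processing notes are HISAT2 2.0.5 and featureCounts 1.5.0-p3, with build GRCm39. Neither strand setting nor multi-mapped read handling nor gene annotation is given in the sources used here. Within each library the deposited FPKM equalled the count over gene length and 1 constant. Column names matched labels for 8 libraries, and the other 2 were placed by their letter.

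Counts were tested in R 4.3.3 with edgeR 4.0.16: filterByExpr (minimum count 10, minimum total 15) kept 14183 of 56748 genes and 99.8% of counts, followed by TMM scaling, glmQLFit and glmQLFTest with 1 group term and Benjamini-Hochberg adjustment over all genes tested. SE is the log2 fold change over the root of the test's F, and 95% intervals use its t distribution. The fit was repeated with libraries scaled to 10 endothelial receptors. Both fits were also run on simulated data. There all 10 receptors were given the same fall, so receptors that fall unequally were not covered. Alternatives used DESeq2 1.42.0, limma 3.58.1 on log2 of FPKM plus 1 or 0.1, other filters and fewer libraries. Replicates of a group differed by more than sampling noise (chi-square per gene 2.04 to 4.11). The 4 shared replicate numbers did not pair the samples (correlation of deviations -0.0011 to 0.16).

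Members and lists were chosen with earlier results of these data known. Full statistics went to up to 4 genes per role with the smallest p and a mean of at least 5 CPM, and to every gene not called; others are given in brief. Of the partner lists some genes beyond the 4 with the smallest p were named after their values were seen. Cdh5, S1pr1, Calcrl, Myct1, Cd34, Mmrn2, Ramp2, Nos3 and Vwf were given more detail after their values were seen.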

Additional observations from a re-analysis of the deposited data

Results flagged for a closer look

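Among the 36 genes in each group of 5 libraries and the summed levels, 1 value stood far from the rest of its group. Sox18 was at 18.7 CPM in the unnumbered Mttp_flox_CM library, where the other 4 lay between 15.9 and 16.2 CPM, so the gap to the nearest took 0.864 of the range (critical value 0.71 for 5 samples). Chance flags about 1 in 20 groups, and 76 groups of values were looked at. The Sox18 log2 fold change over the alternatives ran from -1.81 to -1.49, and it was -1.72 without that library.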

How the results depend on the processing

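Under 19 alternatives the count of members called lower ran from 33 to 35 and that called higher stayed at 0. Of 684 single-gene values 677 kept direction and side of the threshold, 3 lost the call (Cd34 and Myct1, given above), 4 gained it (all Sox17) and 0 reversed. Sox17 was called with total counts alone (adjusted p = 0.0203), with a minimum count of 30 (0.0459), without Mttp_flox_CM replicate 1 (0.0296) and without Mttp_KO_CM replicate 4 (0.0275). The members' median of -0.77 became -0.59 with limma on log2 of FPKM plus 1, a scale that shrinks changes of low genes, and -0.73 with 0.1 added; leaving out 1 library it ran from -0.83 to -0.77. Against the receptors, 6 to 9 members were lower and 18 to 20 higher over 23 alternatives; Robo4 and Oit3 were called lower in 3 each, Tal1 higher in 8 and Ramp2 higher in 3. The shared replicate numbers did not pair the samples; with a replicate block over the 8 numbered libraries, 34 members were lower, 0 higher and the median was -0.75, with 2326 genes higher and 2325 lower in all, and against the receptors 6 were lower and 20 higher. Counts of 30 to 110 per library limit Icam2, Vwf, Ramp2 and Cd34, whose SE was 0.146 to 0.164.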
